A study of Mus musculus with 8 samples.

Results

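The hypothalamic peptide genes described here are 7 genes that encode secreted peptides of the lateral, paraventricular and arcuate nuclei, namely Pmch, Hcrt, Trh, Ghrh, Pomc, Agrp and Cartpt. They were found by symbol, through the RefSeq accession of each array probe, among the 20887 genes that could be named on the array, and 15284 named genes were tested. All 7 had 1 probe each, passed the filter on dim probes and were tested. Brain RNA came from 4 homozygous Pus1 mutants and 4 wild types. Each of 4 arrays with 2 colours held a mutant and a wild type that share a number and a sex, and these are called a pair. Pus1 encodes pseudouridine synthase 1, which converts uridine to pseudouridine in transfer RNAs and other RNAs. Both genotypes were untreated mice, aged 14 to 16 weeks, from 5 generations of backcrosses to C57BL/6J, female in pairs 1 and 2 and male in pairs 3 and 4. The labels do not describe the mutant allele further. The mutant was labelled with Cy5 in pairs 1 and 3 and with Cy3 in pairs 2 and 4, its wild-type partner with the other dye. The RNA came from a frozen cross section of the whole brain, so the hypothalamus was a part of each sample and was not dissected. Nothing in the labels says where along the brain the section lay.

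In bulk tissue of this kind, fewer cells of a type and less RNA per cell cannot be told apart. Pus1 itself had a log2 intensity of 6.75 to 7.16 in mutants and 9.16 to 10.1 in wild types, and its log2 ratio was -2.59 ± 0.38 (SD, n = 4 pairs, limma adjusted p = 0.0364), as the genotype labels give it. The share of probes well above background was 56.3% to 67.7% over the channels. The pairs were not equally alike: 180, 2891, 801 and 368 of 33301 tested probes had a log2 ratio beyond 1 in either direction in pairs 1 to 4.

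The hypothalamus controls feeding, body temperature, sleep and the pituitary gland through small groups of neurons that each release a characteristic peptide, cut from a larger precursor by proteases in secretory granules. Neurons of the lateral hypothalamus make melanin-concentrating hormone (Pmch) or the orexins (Hcrt), which project widely and act on sleep, wakefulness and food seeking. In the paraventricular nucleus thyrotropin-releasing hormone (Trh) starts the axis to the thyroid. The arcuate nucleus holds growth hormone-releasing hormone neurons (Ghrh), neurons that lower food intake through pro-opiomelanocortin (Pomc) and the CART peptide (Cartpt), and neurons that raise it through agouti-related peptide (Agrp). Of these genes Trh and Cartpt are also expressed well outside the hypothalamus, and Pomc is the precursor of corticotropin in the pituitary.

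The promoters of Pmch, Hcrt, Trh and Cartpt, which differed most between mice, are shown for the core elements they carry. The sequences are those of RefSeq (build GRCm38.p6), 250 bases before to 50 bases after the start of the transcript, 5′ to 3′ on the gene's own strand, with capitals on the motif matches.
Pmch, chr10:88090822-88091121, plus strand: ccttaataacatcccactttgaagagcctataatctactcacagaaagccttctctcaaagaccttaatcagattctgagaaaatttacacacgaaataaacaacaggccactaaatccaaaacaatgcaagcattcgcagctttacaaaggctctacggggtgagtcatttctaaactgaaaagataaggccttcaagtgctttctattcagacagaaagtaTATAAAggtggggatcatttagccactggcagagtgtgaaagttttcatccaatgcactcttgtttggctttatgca
Hcrt, chr11:100762882-100763181, minus strand: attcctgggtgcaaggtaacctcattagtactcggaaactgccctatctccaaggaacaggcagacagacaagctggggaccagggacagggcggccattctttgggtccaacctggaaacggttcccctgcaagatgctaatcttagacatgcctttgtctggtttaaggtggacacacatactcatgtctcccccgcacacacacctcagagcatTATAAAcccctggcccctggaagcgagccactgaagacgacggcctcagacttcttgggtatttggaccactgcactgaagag
Trh, chr6:92244601-92244900, minus strand: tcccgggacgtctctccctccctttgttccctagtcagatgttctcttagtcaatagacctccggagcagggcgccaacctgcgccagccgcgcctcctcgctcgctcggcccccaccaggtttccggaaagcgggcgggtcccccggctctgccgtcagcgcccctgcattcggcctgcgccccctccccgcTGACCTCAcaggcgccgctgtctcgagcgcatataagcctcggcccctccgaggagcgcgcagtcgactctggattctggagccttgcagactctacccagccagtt
Cartpt, chr13:99900634-99900933, minus strand: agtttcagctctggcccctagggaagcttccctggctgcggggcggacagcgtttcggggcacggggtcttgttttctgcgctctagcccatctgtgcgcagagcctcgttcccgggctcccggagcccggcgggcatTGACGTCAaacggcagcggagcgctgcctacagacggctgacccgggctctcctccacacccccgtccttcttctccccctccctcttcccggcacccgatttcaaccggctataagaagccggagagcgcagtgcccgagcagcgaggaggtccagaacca
A promoter was held for 6 of the 7 genes, with 2 starts for Ghrh. The motifs searched on both strands were the TATA box TATAAA, the cAMP response element TGACGTCA, its variant TGACCTCA and the ATF4 composite element TGATGNAA, and no matches overlapped. TATAAA was found in Pmch at -27 to -22, in Hcrt at -33 to -28, in Pomc at -25 to -20 and at 1 of the Ghrh starts at -31 to -26, counted from the transcript start, and in 13.6% of 32851 promoters. Trh held TGACCTCA at -57 to -50, a motif in 2.17% of promoters, and Cartpt held TGACGTCA at -112 to -105, a motif in 1.79%. TGATGNAA, in 3.97% of promoters, had no match in these windows. A match describes the letters of the window and no more. Apart from the N, only exact matches were counted, so near variants such as the TATAAG in the Trh and Cartpt windows were left out.

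The lateral hypothalamic genes differed most between mice. Pmch had a normalized log2 intensity of 13.59, 8.21, 9.03 and 13.85 in the mutants of pairs 1 to 4, against 8.71, 7.26, 10.19 and 8.89 in the wild types. The mutants of pairs 1 and 4 stood far above the other 6 mice, while in pair 3 the wild type was the higher, so the genotypes overlapped. The log2 ratio of mutant over wild type was 4.88 in pair 1 and 4.96 in pair 4, a difference of 29.4-fold and 31.1-fold. It was 0.95 in pair 2 and -1.16 in pair 3. In both pair 1 and pair 4 this was the largest ratio of all 33301 tested probes, with the mutant in Cy5 on the one array and in Cy3 on the other. The spots behind these ratios read 13336 in the mutant, against 182.5 in the wild type of pair 1, and 13065 in the mutant, against 966.5 in the wild type of pair 4, over local backgrounds of 48 to 145.

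Hcrt was highest in the same mutants as Pmch. Its log2 intensity was 13.41, 8.79, 9.53 and 14.98 in the mutants of pairs 1 to 4, against 10.84, 8.13, 9.55 and 12.24 in the wild types. The mutants of pairs 1 and 4 were again the highest mice, both mice of pair 2 the lowest, and the mice of pair 3 nearly equal. Its ratio was 2.56 in pair 1 and 2.74 in pair 4, the ninth largest on either array, and 0.66 in pair 2 and -0.01 in pair 3. Hcrt spanned 6.20 log2 units (73.3-fold) among the mutants and 4.11 (17.3-fold) among the wild types. For Pmch the spans were 5.64 log2 units among the mutants and 2.93 among the wild types. Over all 4 pairs Pmch had a log2 ratio of 2.41 ± 3.03 and Hcrt one of 1.49 ± 1.37 (SD, n = 4 pairs). Neither passed the test across all probes in limma (adjusted p = 0.811 and 0.810). Leaving out 1 pair at a time gave 0.90 to 3.92 for Pmch and 0.84 to 2.13 for Hcrt.

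Other genes listed for the lateral hypothalamus had other values in these pairs. Some of them are on other lists here too, Slc17a6 on the thalamic and Gal on the arcuate list, so they do not mark this region alone. The 8 tested of 9 had a median log2 ratio of -0.23, 1.32, -0.53 and -0.03 in pairs 1 to 4, so it lay near 0 in pair 4 and below 0 in pair 1, where Pmch and Hcrt were highest. The largest differences were those of the transcription factor Lhx9 (-0.66 ± 0.49), the pentraxin Nptx2 (-0.62 ± 0.78) and neurotensin, Nts (0.51 ± 0.72). The median hides a spread: in pair 4 the 8 genes ran from -0.53 for Nptx2 to 1.06 for Nts, with galanin, Gal, at 0.98. The list averaged a log2 intensity of 10.55 in the mutant of pair 4 and 10.38 in its wild type. The brightest was the GABA-synthesising enzyme Gad1 (-0.19 ± 0.52), and 0 of the 8 passed in limma. At an unadjusted p under 0.05 there were 4, where 6.05% of all tested probes reached it. These p-values leave out any shift shared by the pairs of 1 dye orientation, here and in the lists below. Dynorphin, Pdyn, which orexin neurons also make, was well above background in 1 of 8 mice and was not tested. Markers of other regions differed as well, and not only in pairs 1 and 4. Striatal markers (12 of 12 tested) had medians of 1.01, -0.41, 0.06 and -1.22 in pairs 1 to 4. Cerebellar markers (14 of 14 tested) had 0.53, 0.44, 0.68 and 1.44, so their median was above 0 in pairs 2 and 3 too. Of the cerebellar markers 13 were higher on average, 0 passed in limma and 8 had an unadjusted p under 0.05, beside 6.05% of all tested probes. Over the mice the striatal list averaged a log2 intensity of 11.1 to 12.4 in mutants and 11.2 to 12.4 in wild types, and the cerebellar list 9.97 to 13.2 in mutants and 9.42 to 12.6 in wild types. Their part in the Pmch and Hcrt differences was not tested.

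**Figure D1:**
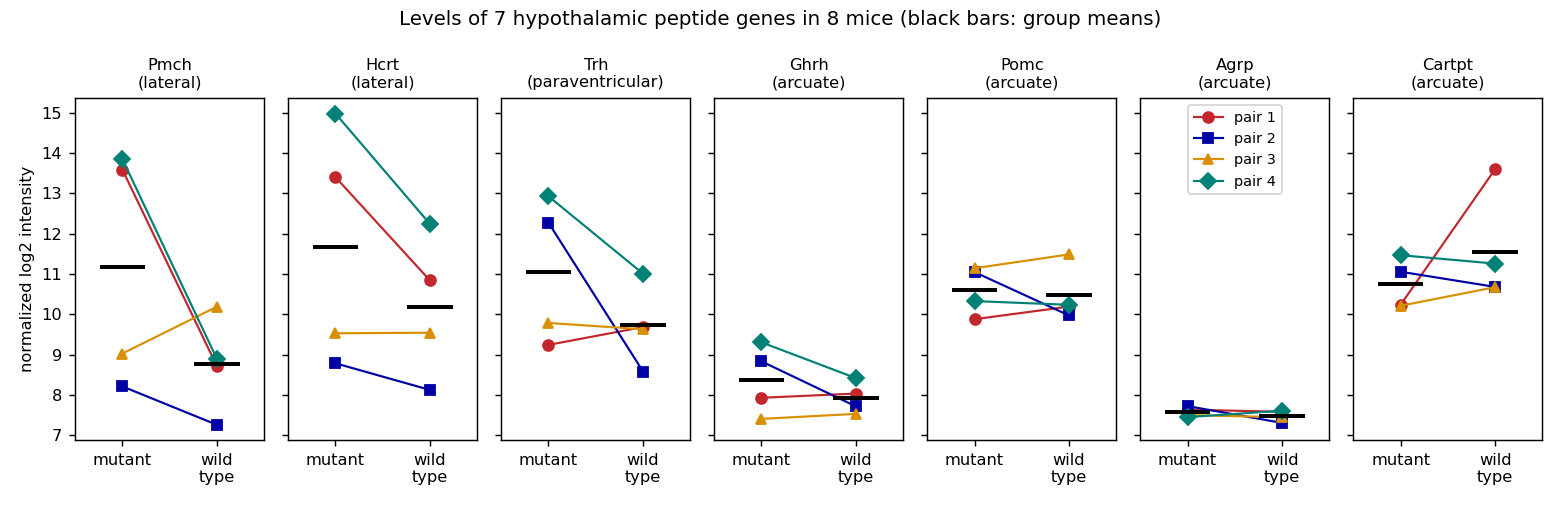
Normalized log2 intensity of the 7 peptide genes in each mouse, mutants left and wild types right in each panel, with a line joining the mice of a pair and a black bar at the mean of 4 mice. Pmch reached 13.59 and 13.85 in the mutants of pairs 1 and 4, and Cartpt 13.60 in the wild type of pair 1, while Agrp stayed between 7.31 and 7.73.

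Trh, the paraventricular gene, was highest in the mutants of pairs 2 and 4. Its log2 intensity was 9.24, 12.28, 9.79 and 12.93 in the mutants of pairs 1 to 4, against 9.69, 8.58, 9.63 and 11.01 in the wild types. The mutants of pairs 2 and 4 and the wild type of pair 4 were the 3 highest mice, and the genotypes overlapped. The log2 ratio was -0.44, 3.69, 0.16 and 1.92, so a difference of 12.9-fold in pair 2 and 3.78-fold in pair 4 stood beside values near 0 in the pairs of the other dye orientation. Over the 4 pairs it was 1.33 ± 1.87 (SD, n = 4 pairs, adjusted p = 0.704 in limma). The dye term of the fit was -1.47 on the log2 scale (unadjusted p = 0.00299, adjusted p = 0.362), which means that dye orientation and another difference between pairs 1 and 3 and pairs 2 and 4 cannot be told apart for this gene. In a fit without pair 4 the ratio was 1.77 with adjusted p = 0.0173, one of 933 probes that passed there. In that fit pair 2 is the only array of its dye orientation and is assumed to vary like the others, and the error comes from pairs 1 and 3 with 1 residual degree of freedom. It is therefore no independent support for a difference in Trh. Several lists of region markers differed in pair 2: the midbrain and brainstem list (9 tested of 14 on the array) had a median of 2.94, cortical and hippocampal excitatory neuron markers (10 of 10) -2.86 and myelin markers (11 of 11) 1.60. In pair 4, where the Trh ratio was 1.92, the same lists had -0.12, -0.33 and -0.28. The midbrain and brainstem list averaged 8.16 to 10.53 in mutants and 7.72 to 10.54 in wild types, with En1 well above background in 0 of 8 mice and Tph2 in 3, the excitatory neuron list 9.33 to 11.1 in mutants and 8.93 to 12.3 in wild types, and the myelin list 13.2 to 14.7 in mutants and 13.3 to 14.1 in wild types. Their part in the Trh difference was not tested.

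Oxytocin and vasopressin, the other large peptide genes of the paraventricular and supraoptic nuclei, were highest in the mutant of pair 4 as well. Oxt read 10.72, 9.51, 10.83 and 16.08 in the mutants of pairs 1 to 4, against 10.03, 8.80, 8.58 and 13.93 in the wild types. Its ratio was 0.69, 0.70, 2.25 and 2.15, higher in the mutant in 4 of 4 pairs. Avp read 9.29, 7.79, 9.30 and 12.12 in the mutants, against 7.81, 7.94, 7.31 and 9.82 in the wild types, with ratios of 1.48, -0.15, 1.99 and 2.30. In pairs 1 and 3, where Trh had ratios of -0.44 and 0.16, both genes were higher in the mutant. The 9 tested of 12 genes on this list had medians of -0.14, 0.58, 0.03 and 0.93 in pairs 1 to 4. In limma 0 passed, with 5 at an unadjusted p under 0.05, beside 6.05% of all tested probes. After Oxt (1.45 ± 0.87, also the brightest) and Avp (1.40 ± 1.09) the largest difference was that of the calcitonin receptor, Calcr (0.69 ± 1.26). Sim1 and Otp, the transcription factors that specify paraventricular neurons, were well above background in 0 and 2 of 8 mice and were not tested.

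Ghrh was highest in the same mice as Trh. Its log2 intensity was 7.93, 8.84, 7.41 and 9.31 in the mutants of pairs 1 to 4, against 8.04, 7.72, 7.53 and 8.42 in the wild types. As for Trh, the mutants of pairs 2 and 4 were the highest mice, with the wild type of pair 4 next. The log2 ratio was -0.10, 1.12, -0.12 and 0.89, on average 0.44 ± 0.65 (SD, n = 4 pairs, adjusted p = 0.720 in limma). Its dye term was -0.56 (unadjusted p = 0.00255, adjusted p = 0.362), so for this gene too the orientation cannot be told apart from a difference between the sets of pairs. The spots of Ghrh were dim, at 137.5 to 632.5 over local backgrounds of 47.5 to 151, where the background correction draws ratios toward 0. With the scanner software's ratio the pairs read -0.24, 1.55, -0.57 and 1.05.

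Pomc was highest in the mice of pair 3. It read 9.88, 11.05, 11.15 and 10.33 in the mutants of pairs 1 to 4, against 10.19, 9.97, 11.49 and 10.24 in the wild types. The 3 highest mice were both mice of pair 3 and the mutant of pair 2, so no genotype stood out. The ratio was -0.31, 1.08, -0.34 and 0.09, on average 0.13 ± 0.66 (SD, n = 4 pairs, adjusted p = 0.925), and it was -0.12 without pair 2. Its dye term was -0.46 (unadjusted p = 0.0458, adjusted p = 0.383 in limma). Pomc is also made in the pituitary, whose markers differed between mice. Growth hormone, Gh, read 7.55, 7.12, 12.57 and 6.99 in the mutants, against 9.28, 6.78, 10.95 and 7.40 in the wild types, so that it too was highest in both mice of pair 3. Prolactin, Prl, read 10.37, 9.12, 12.84 and 6.89 in the mutants, against 12.65, 7.97, 10.51 and 7.72 in the wild types. Both hormones were chosen after their values were seen. Of the 16 pituitary markers 7 were tested, with median ratios of -0.94, 0.71, 0.12 and -0.17 in pairs 1 to 4. The list median and Pomc had the same sign in pairs 1 and 2 and opposite signs in pairs 3 and 4. The mean log2 intensity of the 7 tested markers was 7.98, 8.42, 9.12 and 7.40 in the mutants of pairs 1 to 4, against 8.90, 7.72, 8.65 and 7.63 in the wild types. The transcription factors Tbx19 and Pou1f1 were well above background in 0 of 8 mice. The part of pituitary RNA in the Pomc values was not tested.

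Agrp was the least variable gene of the 7. It read 7.64, 7.73, 7.50 and 7.45 in the mutants of pairs 1 to 4, against 7.59, 7.31, 7.45 and 7.61 in the wild types. All 8 mice lay within 0.42 log2 units, and the spots were dim, at 121.5 to 333 over local backgrounds of 45.5 to 150.5, where the background correction draws ratios toward 0. The log2 ratio was 0.05, 0.42, 0.05 and -0.16, on average 0.09 ± 0.24 (SD, n = 4 pairs, adjusted p = 0.929), with a 95% interval of -0.24 to 0.42. With the scanner software's ratio the pairs read 0.17, 0.78, -0.02 and -0.20, a wider spread.

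Cartpt differed in 1 mouse. It read 10.24, 11.06, 10.22 and 11.47 in the mutants of pairs 1 to 4, against 13.60, 10.68, 10.68 and 11.26 in the wild types. The wild type of pair 1 stood above the other 7 mice, which lay between 10.22 and 11.47. The ratio of -3.36 in pair 1, 10.3-fold lower in the mutant, was the second largest on that array, after Pmch in the opposite direction, while the other pairs had 0.38, -0.46 and 0.21. The average of -0.81 ± 1.74 (SD, n = 4 pairs, adjusted p = 0.833) became -0.084 without pair 1. Its dye term was -1.10 (unadjusted p = 0.0503, adjusted p = 0.385 in limma). The third largest ratio of pair 1 belonged to urocortin, Ucn, a peptide known from the Edinger-Westphal nucleus of the midbrain, whose neurons also express Cartpt. Ucn, singled out after its values were seen, read 6.94, 7.28, 6.89 and 6.72 in the mutants, against 10.05, 6.60, 6.98 and 7.27 in the wild types, and so was high in the same mouse. It was well above background in 1 of 4 mutants and 3 of 4 wild types, so the size of its ratios rests on levels near background. The serotonin transporter Slc6a4, a marker of the raphe nuclei, read 7.86, 10.28, 6.74 and 6.42 in the mutants, against 10.41, 7.33, 7.09 and 6.23 in the wild types. It was high in the wild type of pair 1 and also in the mutant of pair 2, where Cartpt read 11.06. The midbrain and brainstem list as a whole had a median ratio of -0.81 in that pair, and its part in the Cartpt value was not tested.

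**Figure D2:**
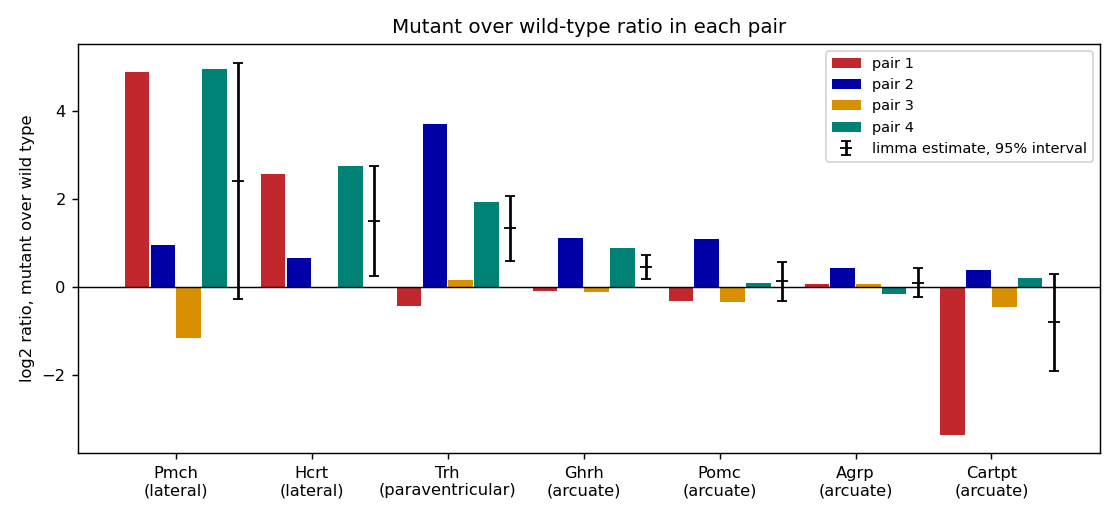
The log2 ratio of mutant over wild type in each pair (bars), and the limma estimate with its 95% interval (black). The bars run from -3.36 for Cartpt in pair 1 to 4.96 for Pmch in pair 4, and no gene has 4 bars on the same side of 0. The interval leaves out any shift shared by the pairs of 1 dye orientation.

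Across all 33301 tested probes 3 passed at adjusted p under 0.05 (0.00901%), 1 of them higher in the mutant (0.003%), and 0 of the 7 peptide genes did in limma. At an unadjusted p under 0.05 in limma there were 3 of 7, Hcrt (0.0273), Trh (0.00480) and Ghrh (0.00724), all higher in the mutant on average. In all, 6.05% of probes reached it, and 3.04% did so while higher. These p-values leave out any shift shared by the pairs of 1 dye orientation, so they do not measure the whole spread between pairs. Ghrh was higher in the mutant in 2 pairs and lower in 2, and Trh had 1.33 ± 1.87. The dye terms not given above were -0.55 for Pmch, -0.21 for Hcrt and -0.039 for Agrp (adjusted p = 0.841, 0.869 and 0.914 in limma). The levels of mutants and wild types were separate for 0 of the 7, against 1.02% of probes, and 0 of the 7 had the same sign in all 4 pairs, against 11.8%. An exact permutation test of the 4 mutant against the 4 wild-type levels gave two-sided p = 0.257 to 0.857 over the genes, where 0.0286 is the smallest it can give. It ignores the pairing, although the mice of a pair share an array. The exact sign-flip test over the pair ratios gave p = 0.250 to 0.875, and it cannot go below 0.125. The ratio did not differ detectably between sexes for any gene (limma interaction, adjusted p = 0.993 to 0.997, with 1 residual degree of freedom), the widest gap being that of Cartpt, with a mean of -1.49 in female and -0.13 in male pairs.

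The spread from mouse to mouse was wide for some of the genes and narrow for Agrp. The 7 genes were chosen with earlier results of these data known, so their shares may differ from those of all probes through that choice. An SD of at least 1 log2 unit over the 8 mice was found for 4 of the 7, Pmch (2.46), Hcrt (2.41), Trh (1.53) and Cartpt (1.09), against 3.59% of all tested probes. Ghrh (0.66) and Pomc (0.60) lay above 90.4% and 88.2% of probes in this measure, whose median was 0.28, and Agrp (0.13) above 6.97%. A ratio beyond 1 in either direction was seen for 3 of 7 in pair 1 (0.541% of probes), 3 in pair 2 (8.68%), 1 in pair 3 (2.41%) and 3 in pair 4 (1.11%). The genes differed from pair to pair: they were Pmch, Hcrt and Cartpt in pair 1, Trh, Ghrh and Pomc in pair 2, Pmch in pair 3, and Pmch, Hcrt and Trh in pair 4. A ratio beyond 2 in either direction was seen for 3 of 7 in pair 1 (0.0541% of probes), 1 in pair 2 (1.63%), 0 in pair 3 (0.0631%) and 2 in pair 4 (0.0961%).

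The genes most like each member were found by the smallest root mean square difference between log2 levels over the 8 mice, each gene centred on its own mean, among 13971 other genes well above background in all mice. For Ghrh they were Nts (0.16 log2 units), Trhr, the receptor of thyrotropin-releasing hormone (0.17), and Asb4, a ubiquitin ligase adaptor of arcuate neurons (0.21), where Ghrh itself deviates by 0.62 from its mean. Trhr had ratios of -0.38, 1.15, 0.08 and 0.92 in pairs 1 to 4, close to those of Ghrh, and Nts -0.12, 1.21, -0.11 and 1.06. For Trh they were the endopeptidase-like Ecel1 (0.74), the exocytosis protein Baiap3 (0.75) and the peptide galanin, Gal (0.76), where Trh deviates by 1.43. Gal had ratios of -0.52, 1.43, -0.32 and 0.98, with the signs of Ghrh in every pair. These genes were picked for levels like those of Ghrh or Trh in the same 8 mice, so close values follow from the choice.

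Pmch and Hcrt were each other's nearest gene (1.19), where Pmch deviates by 2.30 and Hcrt by 2.25 from the mean. Next came the thalamic kinase gene Prkcd (1.49 for Pmch and 1.24 for Hcrt), and then the troponin gene Tnnt1 for Pmch (1.59) and Avp for Hcrt (1.32). Prkcd had a ratio of 1.48 in pair 1 and 0.51 in pair 4, far below the 4.88 and 4.96 of Pmch. For Pomc the nearest were Siah3 (0.23), H2bfm (0.26) and the insulin receptor-related Insrr (0.27), where Pomc deviates by 0.56. For Cartpt they were Ccdc153, a gene of ciliated ependymal cells (0.72), the imprinted neuronal gene Ndn (0.73) and smooth muscle actin, Acta2 (0.74), where Cartpt deviates by 1.02. The 8 mice share arrays in pairs, so these distances rest on fewer than 8 independent points.

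**Figure D3:**
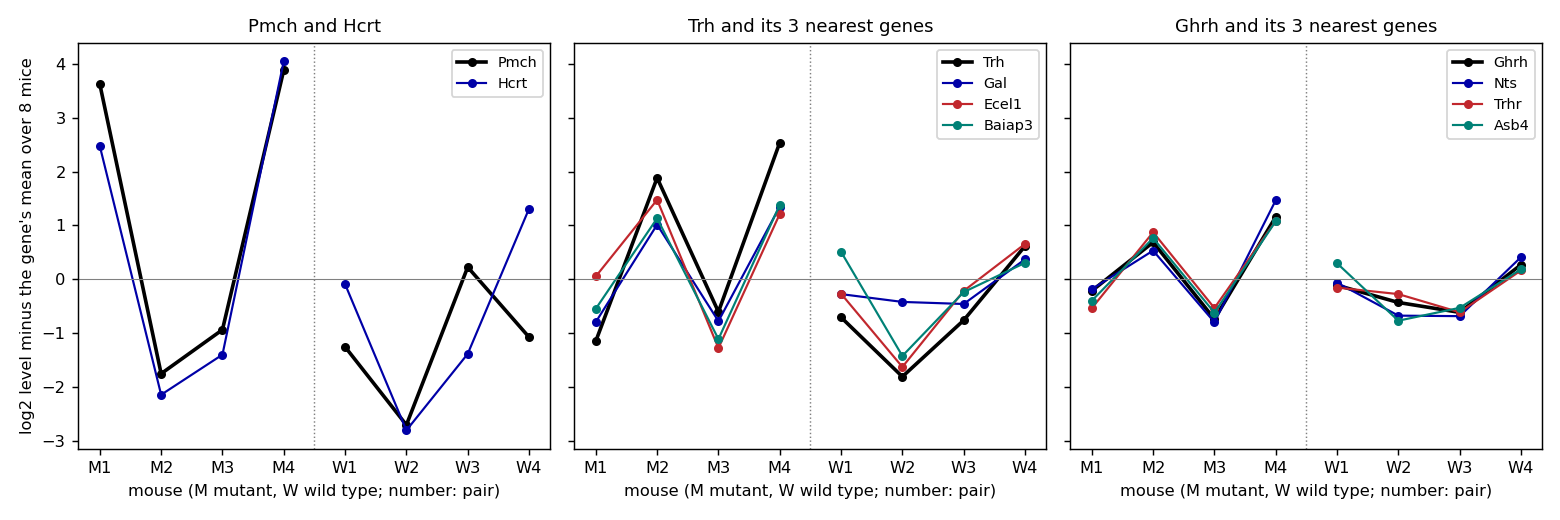
Log2 level of each gene in each mouse minus its own mean over the 8 mice, mutants left of the dotted line and wild types right of it, numbered by pair. Pmch and Hcrt peak in the mutants of pairs 1 and 4, while Trh and Ghrh and their nearest genes peak in the mutants of pairs 2 and 4. The nearest genes were picked for likeness in these same mice.

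Receptors and processing enzymes of these peptides showed no shift that passed. Of 11 receptor genes 7 were tested, 3 were higher and 4 lower, and 0 passed in limma. At an unadjusted p under 0.05 there was 1, beside 6.05% of all tested probes. Their median was -0.07, against 0.01 over all 15284 tested genes. The largest differences were those of Trhr (0.44 ± 0.72), the melanocortin receptor Mc3r (-0.29 ± 0.72) and the second receptor for thyrotropin-releasing hormone, Trhr2 (-0.20 ± 0.22). The brightest, the orexin receptor Hcrtr1 (-0.12 ± 1.58), had -1.03, 1.96, -1.63 and 0.20 in pairs 1 to 4. Its ligand gene Hcrt had its largest ratios in pairs 1 and 4, where the receptor had both signs. Mchr1, the receptor of melanin-concentrating hormone, had -0.07, -0.76, 0.37 and 0.19. Hcrtr2, Ghrhr and Mc1r were well above background in 0 of 8 mice and Mc2r in 1, and they were not tested.

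All 16 genes for peptide processing and secretory granules were tested, 3 higher and 13 lower, with a median of -0.16 and 0 passing. Of all 15284 tested genes 7911 were higher and 7373 lower. At an unadjusted p under 0.05 in limma the list had 1 gene, beside 6.05% of all tested probes. The pair medians were -0.34, 0.36, -0.35 and 0.08, with both signs. The prohormone convertase Pcsk2 (-0.78 ± 0.52, adjusted p = 0.714) had the largest difference and was lower in the mutant in 4 of 4 pairs, at -0.38, -1.55, -0.59 and -0.62, where 5.75% of all probes were lower in all pairs. Next came the granule release factor Cadps2 (-0.31 ± 1.12) and carboxypeptidase E, Cpe (-0.30 ± 0.84), also the brightest.

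In the other hypothalamic lists 0 genes passed in limma as well. Their counts at an unadjusted p under 0.05 stand beside 6.05% of all tested probes. The 17 tested of 19 arcuate genes, 11 higher and 6 lower, had a median of 0.22 with 8 at an unadjusted p under 0.05, led by the transcription factor Hmx3 (1.03 ± 1.07), neuropeptide Y, Npy (-0.85 ± 1.02), and the prolactin receptor Prlr (0.80 ± 1.18). Npy, which Agrp neurons also make but which cortical neurons express as well, had 0.06, -2.30, -0.52 and -0.64 in pairs 1 to 4, and the brightest gene was somatostatin, Sst (-0.51 ± 0.35). The dopamine transporter Slc6a3, on this list for arcuate dopamine neurons and also a marker of the midbrain, had -0.70, 5.93, -2.29 and -1.15. Suprachiasmatic genes, 8 tested of 10, had a median of 0.03 with 2 at an unadjusted p under 0.05, led by Vip (-1.19 ± 1.55), Lhx1 (0.60 ± 0.21, higher in 4 of 4 pairs as were 6.04% of all probes, adjusted p = 0.591) and Grp (-0.47 ± 1.09), and Syt10 (-0.22 ± 0.33) was the brightest.

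Hypothalamic transcription factors, 16 tested of 25, had a median of 0.08 with 5 at an unadjusted p under 0.05. After Hmx3 came Foxb1 (0.81 ± 1.33), and the brightest was Lhx6 (0.01 ± 0.19). Tanycyte and median eminence genes, 9 tested of 13, had a median of -0.14 with 1 at an unadjusted p under 0.05, with the thyroid hormone deiodinase Dio2 (-0.68 ± 0.74), Crym (-0.44 ± 3.64, also the brightest) and Frzb (-0.41 ± 0.59) at the head. The 19 tested of 20 regulators of energy balance had a median of -0.0011 with 3 at an unadjusted p under 0.05. Their largest differences were those of the neuropeptide Y receptor Npy1r (-0.70 ± 1.12), the transcription factor Nhlh2 (0.64 ± 0.61) and the corticotropin-releasing hormone receptor Crhr2 (-0.38 ± 0.26, lower in 4 of 4 pairs), and the brightest was the adiponectin receptor Adipor2 (0.24 ± 0.64).

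**Figure D4:**
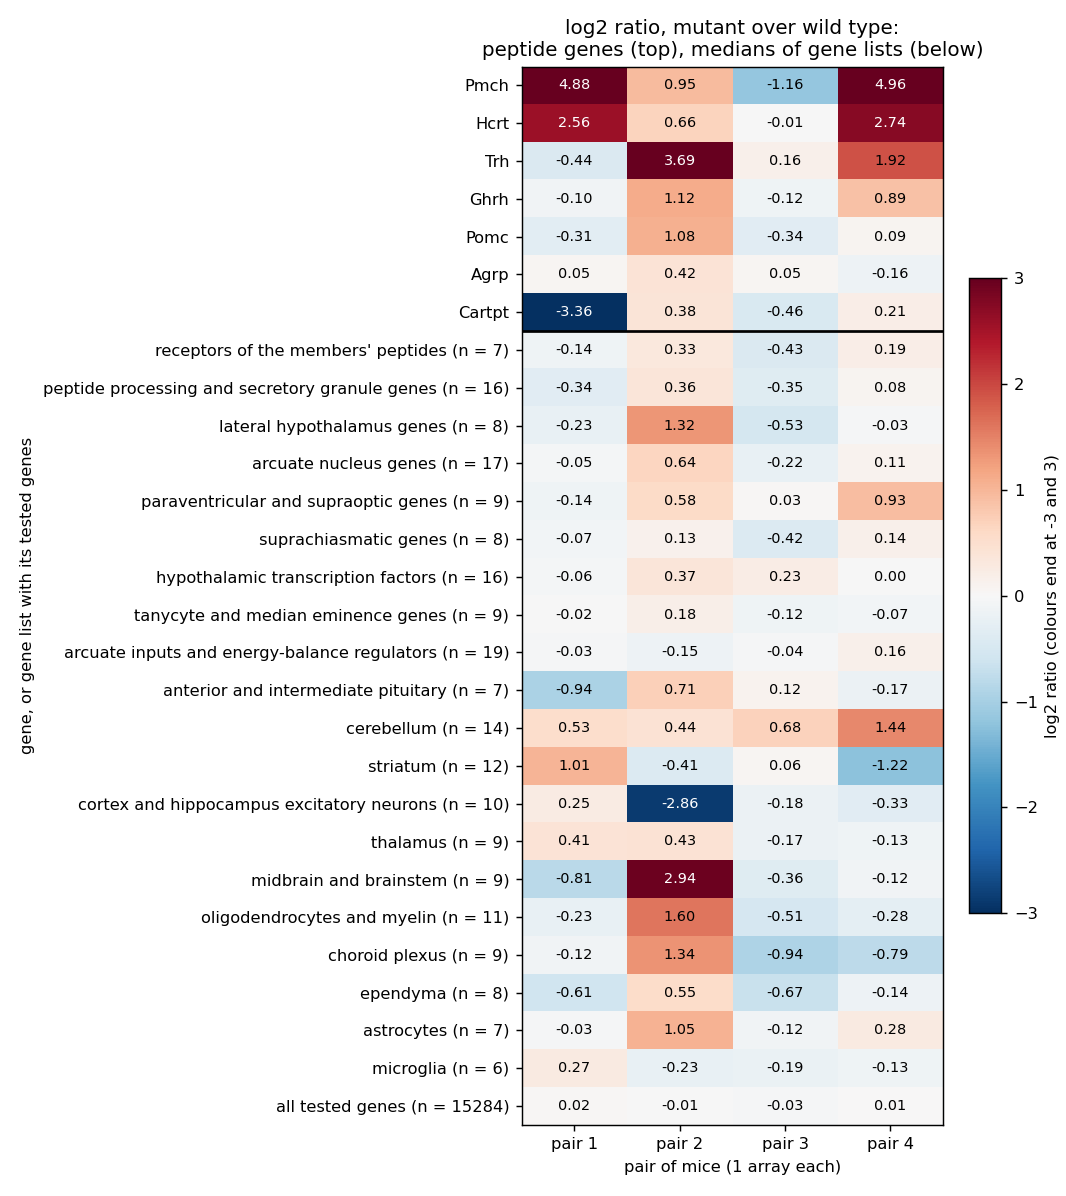
The log2 ratio of mutant over wild type in each pair for the 7 peptide genes (top rows) and the median over the tested genes of each list (lower rows, n in brackets), with colours ending at -3 and 3. Pmch and Hcrt are highest in pairs 1 and 4. There the lateral hypothalamus list, which shares genes with other lists, had both signs and medians of -0.23 and -0.03. Pair 2 has the widest list medians, from -2.86 to 2.94.

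The remaining marker lists differed by pair too. Thalamic markers (9 tested of 10) had medians of 0.41, 0.43, -0.17 and -0.13 in pairs 1 to 4, choroid plexus (9 of 9) -0.12, 1.34, -0.94 and -0.79, and ependyma (8 of 8) -0.61, 0.55, -0.67 and -0.14. Astrocyte markers (7 of 7) had -0.03, 1.05, -0.12 and 0.28, and microglial markers (6 of 6) 0.27, -0.23, -0.19 and -0.13.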

How the data were processed

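The samples were brain RNA of 8 mice on 4 Agilent 2-colour arrays, 200 ng of RNA per mouse. Spot and background intensity values, here the medians of the pixels, were deposited uncorrected, per the file headers (Agilent Feature Extraction 10.7.3.1, also in the submitters' processing notes). The processed intensity and the log10 ratio (Cy5 over Cy3) came from the scanner software after background subtraction and a linear and lowess dye correction, per the file headers, which also describe the 0 or 1 marks for spots. The authors' deposited table of log2 values, with no stated scale, followed the processed signal after quantile normalization minus each probe's median (r above 0.999 on 27624 brighter probes, which settled scale, centring and direction there). Its column medians were -0.0271, 0.0199, -0.0142 and -0.00238 in the mutants of pairs 1 to 4, and -0.0496, 0.0364, -0.00529 and 0.0345 in the wild types.

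Spot medians were corrected by normexp (offset 50) and normalized by loess within arrays, with control spots (3671 of 62976) at weight 0, outlier spots left out and saturated spots kept. Levels of single mice were taken after Aquantile normalization, and spots of 1 probe were averaged. Of 55681 probes, 33307 were well above background in at least 3 of 4 mice of either genotype, and the 33301 with a value on every array were tested. Accessions matched a RefSeq table (GRCm38.p6) for 27509 probes. The headers give mm9 for the array design, so no probe positions are given. Where a gene had several tested probes, the brightest stands for it. The model for the ratios was run in limma 3.58.1 under R 4.3.3 (tables were read by data.table, release 1.17.8) with the genotype signed by the mutant's dye plus a term for dye, leaving 2 residual degrees of freedom, and p-values were adjusted by Benjamini-Hochberg over all tested probes. The fit was tested on simulated data. A shift shared by the pairs of 1 dye orientation goes into the dye term and not into the error. The ratio within an array makes the pair a block. Mice of the same number deviated together at r = 0.791, 0.314, 0.493 and 0.740 in pairs 1 to 4, but share an array, and r with another number reached 0.691 in pairs 2 and 4. Nothing else in the labels says that a number marks more than a shared array and sex. Text names follow a rule: the 7 genes, the 3 largest differences and the brightest gene of each hypothalamic list, and the 3 nearest genes for members with an SD of at least 0.5. Genes named outside it (Ucn, Slc6a4, Slc6a3, Gh, Prl, Mchr1 and those not tested, such as Tph2) were chosen after their values were seen. Gal is within the rule as a gene near Trh, but its value on the lateral hypothalamus list was also singled out after it was seen. One gene that the rule selects is not reported here. The members and lists were chosen with earlier results of these data known.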

Additional observations from a re-analysis of the deposited data

How the results depend on the processing

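Each of the 7 genes was refitted under 14 alternatives, of which 10 changed the processing or the model and 4 left out 1 pair. Under the 10, 0 of the 7 passed. Dropping the filter or the dye term, adding a sex term or an intensity trend, and fitting separate channels left every estimate unchanged. In this balanced design those settings cannot change a direction. The scanner software's ratio, the offset of 16, median centring without loess and the deposited table could, and every gene kept its direction there. Over the 10 the log2 ratio ranged over 2.41 to 2.67 for Pmch, 1.47 to 1.58 for Hcrt, 1.26 to 1.39 for Trh and 0.38 to 0.49 for Ghrh. It ranged over 0.09 to 0.13 for Pomc, 0.09 to 0.18 for Agrp and -0.85 to -0.77 for Cartpt. Leaving out 1 pair gave -0.053 to 0.24 for Agrp and -0.12 to 0.37 for Pomc, both reversed without replicate 2, and 0.89 to 1.77 for Trh, which passed without replicate 4 (adjusted p = 0.0173) as 1 of 933 probes. It gave 0.90 to 3.92 for Pmch, 0.84 to 2.13 for Hcrt, 0.39 to 0.50 for Ghrh and -1.54 to -0.084 for Cartpt. These fits keep 1 residual degree of freedom and leave 1 array in a dye orientation, assumed to vary like the others, so a pass there is no independent support. The count of probes past the test, 3, became 0 with the scanner software's ratio, 0 with a normexp offset of 16, 0 in the authors' deposited table and 0 with a sex term. Without pairing (separate channels, no replicate block) it was 1, and with the array as a random replicate block 10. Without 1 replicate it ranged from 0 (replicates 1 and 3) to 933 (replicate 4). The fits without a replicate have fewer arrays, and the cause of the other shifts was not tested. No gene had another probe to compare. The number of arrays limits the precision, and for the dim genes Agrp and Ghrh the signal over background does too.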
